A study of Homo sapiens with 8 samples.

Results

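Ca9-22 is an established cell line grown from a human oral squamous cell carcinoma (OSCC) of the gingiva. It was 1 of 4 OSCC lines in the experiment, beside SAS-L1, HSC2 and HSC3. The samples described here are the arrays titled Ca9-22, which were 2 of the 8 arrays of the series. All 4 lines were transfected for 48 h with 20 nM of a synthetic mimic, either the miR-375-3p mimic (miR-375) or the negative control mimic without a target (miR-NT). There was 1 array for each line and treatment, so neither treatment was replicated within Ca9-22. The transfection reagent and the mimic dose were common to all groups, and no untransfected cells were measured. Total RNA was labeled from its 3′ end and read on Affymetrix Human Genome U219 arrays. The deposited values are log2 signals, on which a difference of 1 is a 2-fold difference.

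A microRNA guides the Argonaute protein to messenger RNAs that pair with its seed, a short stretch near its 5′ end, and the paired messengers are translated less and degraded faster. miR-375 is known from pancreatic islets and from epithelia, and it is often low in squamous cell carcinomas of the head and neck. The mature strand that the mimic carries is shown because its seed defines which messengers it can pair with. It lies on chr2:219001648-219001669 on the minus strand of GRCh38.p14, and the capitals mark the seed, bases 2 to 8 (sequence from RefSeq).
hsa-miR-375-3p: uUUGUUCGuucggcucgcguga
A perfect match to this seed in a messenger reads CGAACAA. Matches in messengers were not searched here.

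Median signals of the arrays ran from 4.96 to 5.00. Across 18239 genes the Ca9-22 arrays correlated with each other at r = 0.983, and with the arrays of the other lines at 0.937 to 0.956. Among the epithelial markers, EPCAM measured 11.05 and 11.35 and the E-cadherin gene CDH1 9.91 and 9.79 in Ca9-22 with miR-NT and with miR-375. The basal keratin KRT14 measured 4.28 and 4.21 in Ca9-22, while the other arrays ran from 4.05 to 11.28 with a median of 8.93 (difference -3.69, limma adjusted p = 0.713). Of the 6 measured epithelial markers, 2 were over 2-fold lower in Ca9-22 and 0 over 2-fold higher, beside 2.6% and 2.78% of all genes. Their median difference was -0.60, and all 6 overlapped with the other arrays. Over all genes, both Ca9-22 arrays lay above all 6 others for 11.3% and below all 6 for 7.08%, and the rest overlapped. Of 8 fibroblast markers, 7 were below the median of all probe sets (4.98) on both Ca9-22 arrays, and the mean signals of all 8 ran from 2.84 to 5.05. Of 8 immune and endothelial markers, 4 were below that median, and the mean signals ran from 3.20 to 6.13.

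The first question was which genes set Ca9-22 apart from the other lines, whatever the mimic. Against SAS-L1, HSC2 and HSC3, Ca9-22 had higher signals of the chemokine receptor ACKR3, the kinase LCK and the ER protein gene SVIP, by 11.1-fold to 20.7-fold. It had much lower signals of the matrix genes SPARC and IGFBP7, the tight junction gene CLDN1 and the heat shock protein gene HSPB1, by 44.1-fold to 136.9-fold. In limma, with the treatment as a term and the line as a random block, 34 of 18239 genes were higher in Ca9-22 (0.186%) and 37 were lower (0.203%) at a Benjamini-Hochberg adjusted p under 0.05. Both Ca9-22 arrays lay above all 6 other arrays for 11.3% of all genes and below all 6 for 7.08%. All 71 called genes were of this kind. These tests set 1 line against 3, and taking each line as a single value called no gene (1254 genes had an unadjusted p under 0.05). Without HSC3 the counts were 4 higher and 17 lower, and only 12 of the 71 calls held whichever of the other lines was left out.

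ACKR3, an atypical receptor that takes up the chemokine CXCL12, measured 8.53 with miR-NT and 7.64 with miR-375 in Ca9-22. In the other 6 arrays it lay between 3.45 and 4.02, with a median of 3.75. The difference was 4.37 ± 0.36 (SE, 2 against 6 arrays, as for all differences between the lines), with limma's adjusted p = 0.00845. All 4 of its probe sets were higher in Ca9-22, but without HSC3 the call was lost (adjusted p = 0.056).

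LCK, the Src family kinase best known from T cells, measured 7.29 and 7.90 in Ca9-22 and between 3.81 and 4.34 elsewhere, with a median of 3.95. The difference was 3.61 ± 0.25 (limma, adjusted p = 0.00513). The call held with each other line left out, and all 5 probe sets were higher in Ca9-22. The T cell marker CD3E measured 5.03 and 4.77 in Ca9-22 and the leukocyte marker PTPRC 3.31 and 3.28, differing from the other lines by 0.17 and 0.12. SVIP, whose product inhibits the degradation of proteins of the endoplasmic reticulum (ER), measured 7.02 and 7.72 against 3.68 to 4.00 elsewhere, a difference of 3.48 ± 0.25. Its call (limma, adjusted p = 0.00613) was lost without HSC3 (adjusted p = 0.0526).

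The other leading genes on the higher side belonged to several families. Their calls were all lost without HSC3, except that of SPOCD1. GCNT1, a glycosyltransferase that branches O-glycans, measured 7.31 and 6.6 against 3.75 to 4.32 in the other arrays. EPPK1, a plakin that binds keratin filaments, measured 7.36 and 7.03 against 4.07 to 4.66. MYL9, a myosin light chain of contractile cells, measured 8.51 and 8.03, while the other 6 arrays stayed within 5.58 to 5.77. The potassium channel subunit KCNS3, the bile acid binding protein FABP6, the scaffold CASK, the ERBB4 ligand NRG4 and SPOCD1 were higher by 1.86 to 2.94. For ZNF117 the 3 probe sets differed by 0.28 to 2.60, so its size depends on the probe set read. The epithelial transcription factor KLF4, outside the first 15 genes, measured 7.94 and 8.46 against 6.63 to 6.96 (difference 1.38 ± 0.16, limma adjusted p = 0.0268), and its call was lost whichever other line was left out (adjusted p from 0.0521 to 0.0863).

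On the lower side, SPARC, which encodes a matrix glycoprotein, measured 4.40 with miR-NT and 4.10 with miR-375 in Ca9-22. The other arrays measured 10.50 to 11.15, with a median of 10.75. The groups did not overlap, and the difference was -6.54 ± 0.26 (limma, adjusted p = 0.000267). All 9 probe sets of SPARC were lower in Ca9-22, by 1.53 to 6.54 log2 units in size. IGFBP7, a secreted protein that binds growth factors, measured 3.33 and 3.14 against 8.87 to 11.40 (difference -7.10 ± 0.81). Its 4 probe sets differed by -7.10 to 0.13, so this difference rests on the brightest of them, and the call was lost without HSC2 or without HSC3.

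CLDN1, the claudin that seals tight junctions of stratified epithelium, measured 3.66 and 3.35 in Ca9-22. The other arrays measured 7.81 to 10.57, with a median of 9.47. All 4 probe sets were lower, and the difference was -5.97 ± 0.65 (limma, adjusted p = 0.0212). The call was lost without SAS-L1 or without HSC3 (highest adjusted p = 0.0867) and with the mean of the probe sets. In the list of 25 measured junction and polarity genes it was the only member called, beside 0.186% of all genes called higher and 0.203% lower. Of the 25, 3 were above all 6 other arrays and 1 below, beside 11.3% and 7.08% of all genes, and 21 overlapped. CLDN4 measured 8.78 and 9.24 in Ca9-22 and CLDN7 7.56 and 8.13, neither of them called. In the other 3 lines CLDN1 fell with the mimic by 1.12 (limma, adjusted p = 0.0256), whereas in Ca9-22 its signal was already at the lower end of the scale with miR-NT.

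For several other genes on the lower side the call did not turn on which lines were compared. PBDC1, a gene on chromosome X, measured 3.51 and 3.52 in Ca9-22 and 9.11 to 9.77 elsewhere. EMC10, a subunit of the ER membrane complex that inserts membrane proteins, measured 4.14 and 4.36 against 9.76 to 10.45, read from 1 probe set. Both had limma's smallest adjusted p, 7.22e-05. HSPB1, the small heat shock protein HSP27, measured 4.12 and 4.6 against 8.85 to 10.35, read from a single probe set. SLFN11, which blocks stressed replication forks, measured 4.11 and 3.57 against 7.53 to 8.16. The surface protein gene CD99 measured 4.73 and 4.95 against 8.85 to 9.88, and HTATIP2 4.37 and 4.35 against 8.46 to 9.89. All of these calls held with each other line left out, that of HTATIP2 only just (limma, highest adjusted p = 0.0499). DNAJC15, a co-chaperone of the mitochondrial import machinery, measured 3.32 and 3.25 against 7.82 to 9.61, but the call was lost without SAS-L1 or without HSC3.

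**Figure D1:**
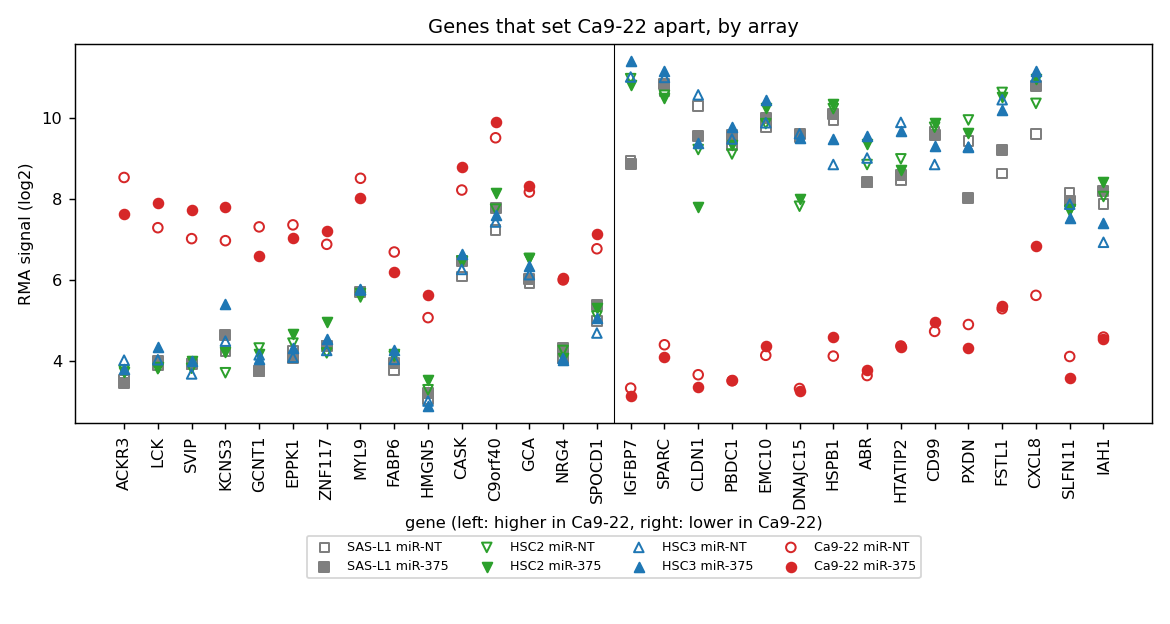
RMA signals (log2, vertical axis) of the 30 genes with the largest called differences between Ca9-22 and the other lines, 15 in each direction; each point is 1 array, open for miR-NT and filled for miR-375. The 2 Ca9-22 arrays lie beyond the 6 other arrays for every gene plotted, from ACKR3 (8.53 and 7.64 against 3.45 to 4.02) to IAH1 (4.59 and 4.53 against 6.93 to 8.43).

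Several large differences did not pass the test. SOX2, a stem cell transcription factor of squamous epithelium, measured 9.16 and 9.21 in Ca9-22. The other arrays ran from 3.77 to 7.85 with a median of 4.37, and the difference of 4.32 ± 1.38 had limma's adjusted p = 0.324. The fibronectin gene FN1 measured 2.97 and 3.00 in Ca9-22 against 6.55 to 10.51 elsewhere (difference -5.93 ± 1.18, limma adjusted p = 0.125). PLAU, the urokinase that activates plasminogen, measured 5.42 and 5.64 against 9.54 to 12.16, a difference of -5.60 ± 0.79 with limma's adjusted p at 0.05 after rounding and no call. The intermediate filament gene VIM measured 5.87 and 5.89 against 6.29 to 11.86. Of 26 measured mesenchymal genes, 6 were below all other arrays on both Ca9-22 arrays and 6 above all of them, beside 7.08% and 11.3% of all genes, among the latter the collagen gene COL6A1 at 8.78 and 9.15 against 5.41 to 8.06. The median difference over this list was 0.00, against 0.03 over all genes.

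The list of cytokine genes and feedback genes of NF-κB, the transcription factor of inflammatory signaling, had 31 measured members. In Ca9-22, 16 of them were below all 6 other arrays and 1 was above, beside 7.08% and 11.3% of all genes, and the median difference was -0.81. By size, 15 were over 2-fold lower and 0 over 2-fold higher, beside 2.6% and 2.78% of all genes, and 1 passed the test. That gene was CXCL8, the neutrophil chemokine interleukin-8, which measured 5.62 with miR-NT and 6.84 with miR-375 against 9.60 to 11.15 elsewhere (difference -4.41 ± 0.51, limma adjusted p = 0.0263, lost without HSC2 and held without each of the others). The chemokine CCL20 measured 4.85 and 5.61 against 8.24 to 11.13, and the NF-κB inhibitor TNFAIP3 6.15 and 7.08 against 8.73 to 10.38. CXCL2 measured 4.63 and 4.81 against 6.13 to 9.55. These 3 had adjusted p from 0.122 to 0.274.

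In other lists, members lay beyond the other arrays mostly on 1 side, with no member called. Of 36 DNA replication genes, 11 were above all other arrays and 0 below, beside 11.3% and 7.08% of all genes, with a median difference of 0.45. The mimic arrays enter this median. With the mimic the list's median change was -0.89 in HSC3, with 13 genes over 2-fold lower, and -0.16 in Ca9-22. The licensing factor gene CDT1 measured 8.54 and 8.79 against 5.92 to 8.04, and the cyclin gene CCNE1 7.63 and 7.0 against 4.81 to 6.85. Of 30 mitosis genes, 9 were above and 0 below (median 0.33), and their median change with the mimic in HSC3 was -0.73. Of 21 antigen presentation genes 6 were above and 0 below (median 0.29). In that last list NLRC5, the activator of MHC class I genes, measured 7.54 on both Ca9-22 arrays against 5.61 to 6.87. Of 18 S100 genes, 6 were below all others and 1 above, led by S100A14 at 6.64 and 5.78 against 8.46 to 9.85.

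Matrix proteases split by gene. Of 20 measured members of the list, 4 were above all other arrays and 4 below, beside 11.3% and 7.08% of all genes. MMP10, MMP12 and MMP13, secreted proteases whose genes lie close together on chromosome 11, were above all other arrays. MMP10 measured 8.12 and 6.12 in Ca9-22 against 4.04 to 5.19, MMP12 6.05 and 4.98 against 2.95 to 3.89, and MMP13 8.60 and 7.03 against 5.30 to 6.15. MMP3, from the same cluster, measured 4.00 and 3.96 against 3.86 to 10.23. None of these passed the test (limma, adjusted p from 0.211 to 0.789).

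**Figure D2:**
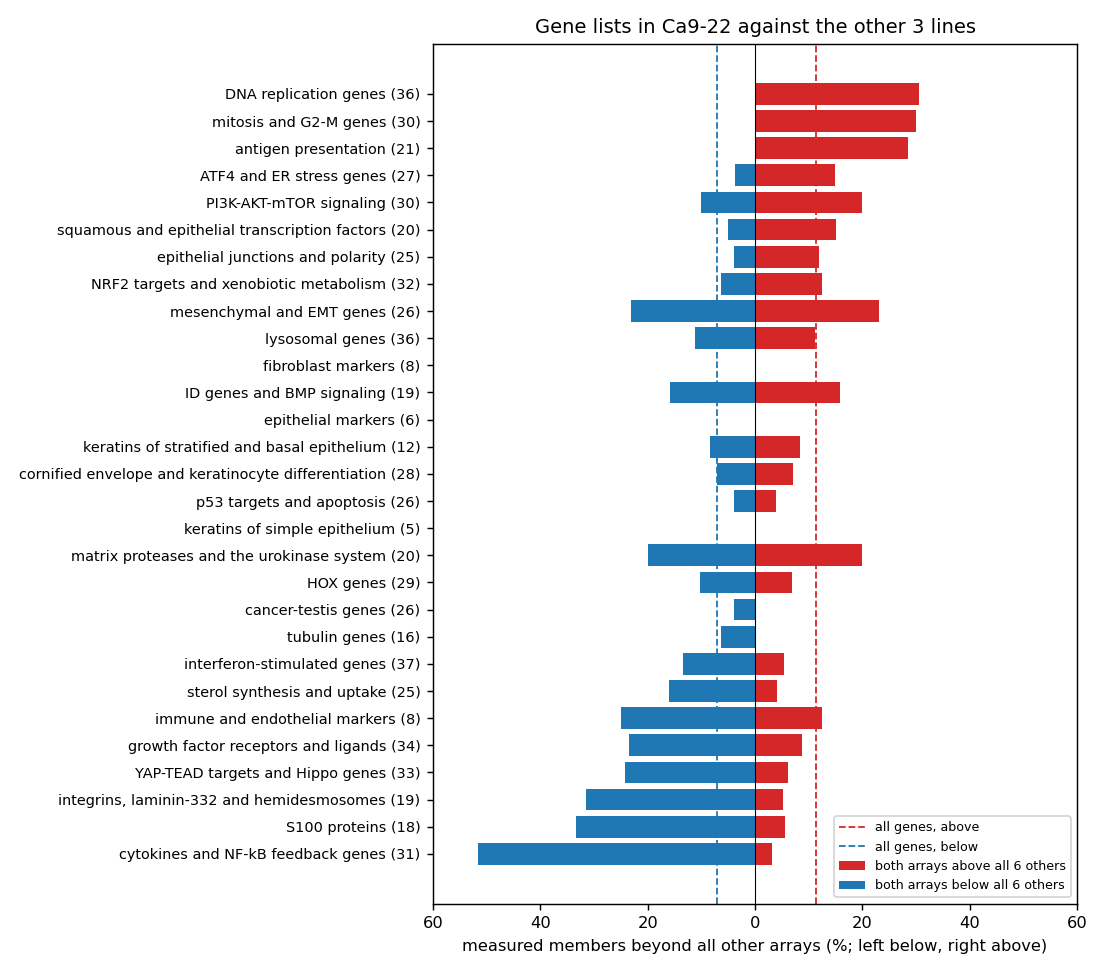
Share of the measured members of each gene list (number in parentheses, lists of chromosome regions and of miR-375 targets left out) whose 2 Ca9-22 arrays both lie above (red, to the right) or both below (blue, to the left) the 6 arrays of the other lines, in percent; dashed lines mark the shares over all genes, 11.3% and 7.08%. The cytokine list reaches furthest to the left (16 of 31) and DNA replication furthest to the right (11 of 36).

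In a few stretches of the genome, neighbouring genes differed together. After ordering the measured genes along each chromosome, 715 runs of 25 genes were formed, and these runs were read after the values had been seen, with no test. In 12 runs at least 10 genes were above all other arrays, and in 6 at least 10 were below. Those given here were picked for their counts. In the run on chromosome 7 from LINC03006 to FZD9, 16 of 25 genes were above all other arrays and 0 were below, with a median difference of 0.59. Over all genes 11.3% were above and 7.08% below. From ZNF117, which lies just before this run, to ASL, 6 measured genes all had a positive difference, with a median of 1.71. Among them GUSB, the lysosomal β-glucuronidase that is often used as a reference gene, measured 9.55 and 9.95 against 7.77 to 8.30 (difference 1.72 ± 0.20, limma adjusted p = 0.0261, lost without SAS-L1 or without HSC3). ASL, an enzyme of the urea cycle, measured 8.85 and 8.91 against 6.78 to 7.49. Its call (limma, adjusted p = 0.047) was lost without HSC2 or without HSC3, and its 5 probe sets differed by -0.17 to 1.79.

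At the start of chromosome 13 the opposite was seen. Of the first 25 measured genes there, 14 were below all other arrays and 0 above, beside 7.08% and 11.3% of all genes, with a median of -0.67. The nuclear exporter XPO4, the corepressor subunit SAP18, the mitochondrial ribosome gene MRPL57 and the calcium uptake regulator MICU2, which lie in this run, were each called lower, by 1.11 to 1.41 log2 units, and each of these calls was lost without HSC3. On chromosome 9, which holds 724 of the 18165 ordered genes, 129 were above all others (17.8%), beside 11.3% of all genes. Of the 34 higher calls 8 lay there, including GCNT1, KLF4 and the bromodomain gene BRD3. Larger shares above all others were seen on chromosomes 16 (19.6%), 18 (18.7%) and 21 (19.6%). On chromosome 15, 140 of 537 genes were above (26.1%). On chromosome 14, 102 of 565 were below (18.1%), beside 7.08% of all genes.

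**Figure D3:**
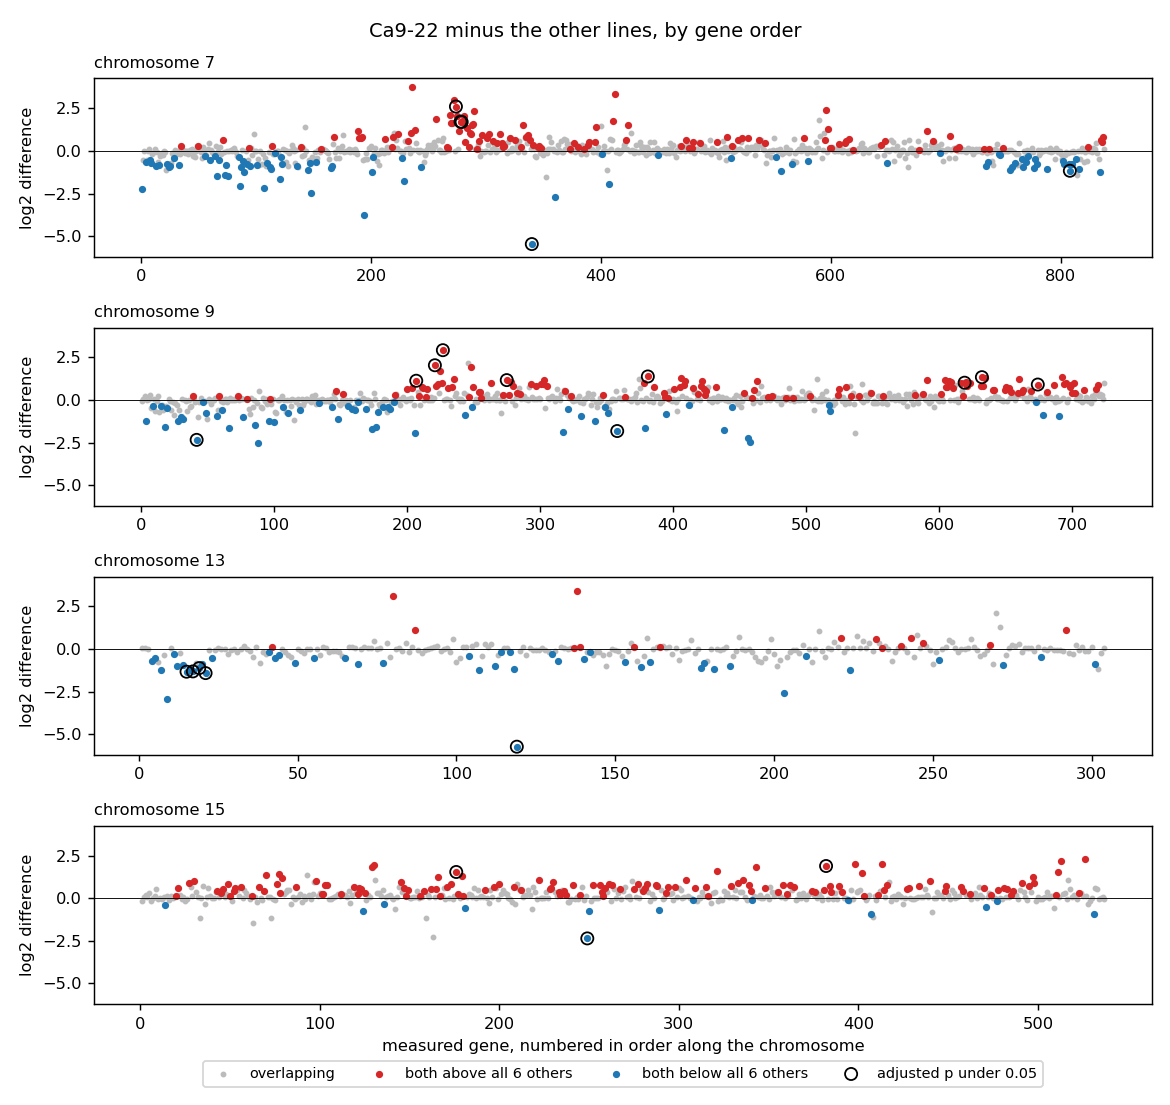
Difference between Ca9-22 and the other lines (log2, vertical axis) of each measured gene on chromosomes 7, 9, 13 and 15, numbered in order along the chromosome (horizontal axis); red and blue points are genes beyond all 6 other arrays and circles mark called genes. The raised run on chromosome 7 holds GUSB and ASL, with ZNF117 just before it, and the lowered run at the start of chromosome 13 holds XPO4, SAP18, MRPL57 and MICU2.

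The second question was how Ca9-22 responded to the mimic. With 1 array per treatment this response has no test, and each value is the miR-375 signal minus the miR-NT signal. In Ca9-22, 369 genes were over 2-fold lower with the mimic (2.02%) and 171 were over 2-fold higher (0.938%). In SAS-L1 107 genes were lower (0.587%) and 67 higher (0.367%), in HSC2 213 (1.17%) and 74 (0.406%), and in HSC3 402 (2.2%) and 250 (1.37%). By position across zero, 38.4% of all genes were lower in Ca9-22 and 61.6% higher, with a median difference of 0.05. When the probe sets of a gene were averaged, 257 genes were lower and 100 higher.

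The genes lower with the mimic in Ca9-22 were mostly lower elsewhere too. Of the 369, 336 (91.1%) had a lower signal with the mimic in each of the other 3 lines, and 51 were over 2-fold lower in all 4. The list shared 210 genes with that of HSC3, which were 56.9% of the Ca9-22 list and 52.2% of the HSC3 list. It shared 158 with HSC2 (42.8% and 74.2%) and 75 with SAS-L1 (20.3% and 70.1%). Over all genes, 2.2% were over 2-fold lower in HSC3, 1.17% in HSC2 and 0.587% in SAS-L1. For 125 of the 369 (33.9%) no other line passed 2-fold. On the higher side, 131 of the 171 (76.6%) were higher in each other line, 4 were over 2-fold higher in all 4, and for 102 (59.6%) no other line passed 2-fold. The overlap was 53 genes with HSC3 (31.0% of the Ca9-22 list and 21.2% of the HSC3 list), 22 with HSC2 and 21 with SAS-L1. Over all genes, 1.37% were over 2-fold higher in HSC3, 0.406% in HSC2 and 0.367% in SAS-L1. These lists share no array. How many of all genes moved the same way in all 3 other lines was not counted, so 91.1% and 76.6% lack that share for comparison.

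The response of the other lines was also tested without any Ca9-22 array. With the line as a block, limma called 537 genes that fell (2.94%) and 625 that rose (3.43%) with the mimic over SAS-L1, HSC2 and HSC3 at an adjusted p under 0.05. Of the 537, 517 (96.3%) were lower in Ca9-22, 231 of them over 2-fold, and the median in Ca9-22 was -0.89 against -0.75 in the other 3 lines. Of the 625, 583 (93.3%) were higher in Ca9-22, 63 of them over 2-fold, with a median of 0.49 against 0.55. Over all genes, 38.4% were lower in Ca9-22 and 61.6% higher, with 2.02% and 0.938% past 2-fold. The lists depend on HSC2, since without it no gene passed (2902 genes had an unadjusted p under 0.05).

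The keratin genes KRT8 and KRT5 were among the 15 largest falls in value in Ca9-22, while most keratins were not over 2-fold lower. Over 2-fold lower were 2 of 12 measured keratins of stratified epithelium, with a median of 0.02, and 1 of 5 of simple epithelium, with a median of -0.47. Over all genes the share in Ca9-22 was 2.02%. KRT8, a keratin of simple epithelium, measured 8.91 with miR-NT and 5.24 with miR-375, a difference of -3.67 or 12.7-fold, and all 8 of its probe sets were lower by at least 2.60. In the other lines the difference was -1.80 in SAS-L1, -2.32 in HSC3 and -0.26 in HSC2, where the signal was 4.76 with miR-NT. KRT5, a keratin of the basal layer, went from 9.92 to 7.24 (-2.68), beside -2.48 in SAS-L1, -1.31 in HSC2 and -0.46 in HSC3. KRT18, the partner of KRT8 in filaments, went from 10.04 to 9.36.

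Genes that have been described as miR-375 targets were also among the largest falls. QKI, an RNA binding protein that regulates splicing, measured 8.97 and 6.02 (-2.95), beside -1.91 to -3.06 in the other lines. Its 6 probe sets in Ca9-22 gave -2.95 to 0.07. MTDH, an oncogene also called metadherin, measured 10.24 and 7.73 (-2.52), beside -1.51 to -1.98. LDHB, a subunit of lactate dehydrogenase, measured 11.52 and 9.04 (-2.48), beside -1.24 to -2.35. Of 21 measured genes of that list, 16 were lower in Ca9-22 and 8 over 2-fold lower, beside 38.4% and 2.02% of all genes. In SAS-L1, HSC2 and HSC3, 5, 7 and 7 were over 2-fold lower, beside 0.587%, 1.17% and 2.2% of all genes. YAP1, the transcriptional coactivator of the Hippo pathway, measured 9.32 and 7.25 (-2.07). Of 33 YAP-TEAD targets and Hippo genes, 7 were over 2-fold lower in Ca9-22 and 0 over 2-fold higher, beside 2.02% and 0.938% of all genes. In SAS-L1, HSC2 and HSC3, 2, 5 and 8 were over 2-fold lower, beside 0.587%, 1.17% and 2.2% of all genes. Among the 7 were WWC2, a Hippo regulator (-2.78, with 4 probe sets from -2.78 to -0.03), and WWTR1, the paralogue of YAP1 (-1.97). Of 18 measured candidates that the study's text names, 16 were over 2-fold lower in Ca9-22, beside 2.02% of all genes. Their median was -1.63 in Ca9-22, -0.87 in SAS-L1, -1.29 in HSC2 and -1.41 in HSC3. The study chose those candidates on these same arrays, so their direction is no independent evidence.

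The other leading falls came from genes of varied function. SEMA3C, a secreted guidance cue, measured 7.91 and 4.98 (-2.93), beside -1.49 to -1.71 in the other lines. Its 6 probe sets in Ca9-22 gave -2.93 to -0.09, and their mean gave -0.96, so its size depends on the probe set read. PSIP1, a chromatin reader, measured 7.62 and 4.76 (-2.85), beside -2.06 in SAS-L1, -3.27 in HSC2 and -3.46 in HSC3, and its 3 probe sets in Ca9-22 gave -2.85 to 0.01. MAT2B, the regulatory subunit of methionine adenosyltransferase, measured 10.10 and 7.30. EIF5A2, a translation factor, measured 7.86 and 5.07, and PALS1, a polarity scaffold of tight junctions, 8.18 and 5.44. The 4 probe sets of EIF5A2 gave -2.79 to -0.09, and the 5 of PALS1 -2.74 to -0.91. NT5E, the ectonucleotidase CD73, measured 9.69 and 7.14, and FGFBP1, a carrier of fibroblast growth factors, 8.71 and 6.21. In the integrin and hemidesmosome list, 4 of 19 genes were over 2-fold lower, namely DST, ITGB4, ITGA6 and ITGA3, and these 4 were lower in each other line too, by 0.54 to 1.65 log2 units. In SAS-L1, HSC2 and HSC3, 2, 0 and 1 genes of the list were over 2-fold lower, beside 0.587%, 1.17% and 2.2% of all genes. In Ca9-22 the share of all genes was 2.02%.

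**Figure D4:**
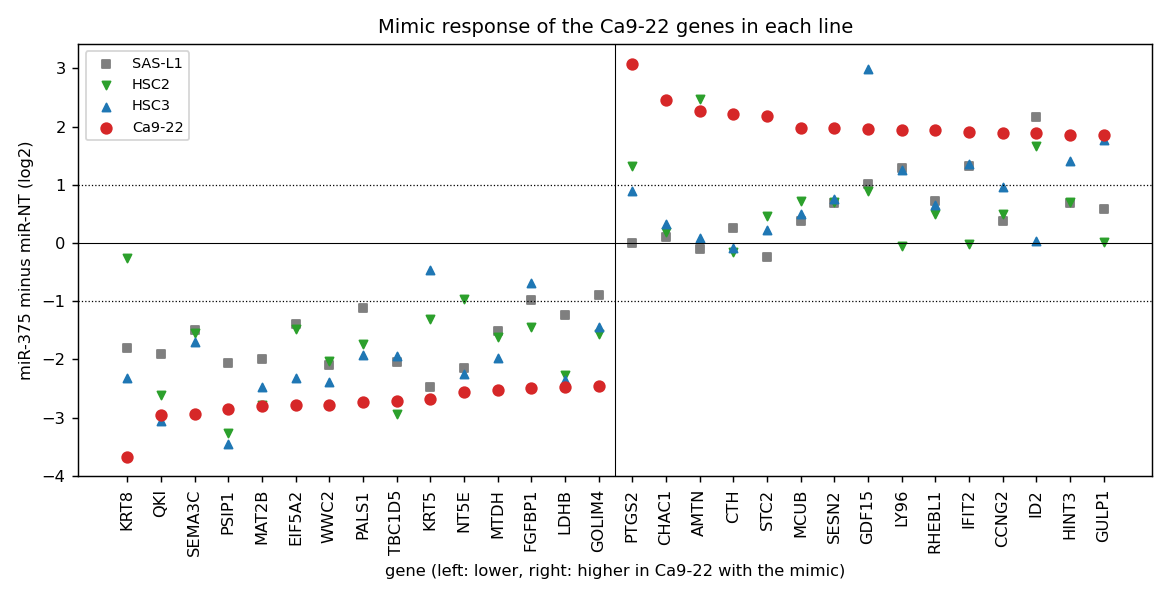
Difference between the mimic and miR-NT (log2, vertical axis) in each line for the 15 largest falls and 15 largest rises in Ca9-22 among genes brighter than the median of all probe sets; each point is 1 line, and dotted lines mark 2-fold. KRT8 reaches -3.67 in Ca9-22 and -0.26 in HSC2, whereas CHAC1 reaches 2.45 in Ca9-22 and at most 0.32 elsewhere.

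The largest rises in value in Ca9-22 were those of PTGS2, CHAC1, AMTN, CTH and STC2, of which CHAC1 is in the ATF4 and ER stress list. PTGS2, the inducible cyclooxygenase, measured 4.42 with miR-NT and 7.5 with miR-375, a difference of 3.08 or 8.43-fold. It was higher by 1.33 in HSC2 and 0.89 in HSC3, while in SAS-L1 it stayed at 3.43. Its 3 probe sets gave 0.90 to 3.08 in Ca9-22. AMTN, which encodes the enamel protein amelotin, was higher by 2.26 in Ca9-22 and by 2.48 in HSC2, beside -0.11 in SAS-L1 and 0.09 in HSC3. ATF4 is the transcription factor that cells switch on when amino acids run short or proteins misfold in the ER. CHAC1, an ATF4 target that breaks down glutathione, measured 5.30 and 7.75, 5.47-fold higher, and both of its probe sets were higher by at least 2.05. In SAS-L1 the difference was 0.10, in HSC2 0.18 and in HSC3 0.32.

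Over the ATF4 and ER stress list, 8 of 27 genes were over 2-fold higher in Ca9-22, 2 in SAS-L1, 0 in HSC2 and 1 in HSC3, beside 0.938%, 0.367%, 0.406% and 1.37% of all genes. The list's median was 0.46 in Ca9-22 and 0.06 to 0.16 in the other lines. SESN2, a sestrin that restrains mTORC1, measured 7.0 and 8.97 (1.97), beside 0.68 to 0.75 elsewhere. TRIB3, a pseudokinase that inhibits AKT, measured 7.33 and 9.03 (1.70), beside 0.29 to 0.47. ASNS, asparagine synthetase, measured 9.16 and 10.79 (1.63), beside 0.62 to 1.13. DDIT3, the transcription factor CHOP, measured 4.97 and 6.45 (1.48), beside 0.16 to 0.51. The list also holds ER chaperones, of which HSPA5 measured 11.57 and 11.68 and the disulfide isomerase gene PDIA4 was lower with the mimic by 1.14 log2 units.

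GDF15, a stress cytokine, measured 8.70 and 10.65 in Ca9-22. Its miR-NT signal was above every array of the other lines, which ran from 4.03 to 7.02. The difference of 1.95 lay inside the range of the others, 0.90 to 2.99. CTH, which makes cysteine from cystathionine and, like STC2, is not in the list, measured 6.64 and 8.86 (2.21), beside -0.15 to 0.26. STC2, a secreted glycoprotein also induced by ER stress, measured 6.34 and 8.53 (2.18), beside -0.24 to 0.46. Of 26 measured p53 and apoptosis genes, 5 were over 2-fold higher in Ca9-22, among them SESN2, the death receptor gene TNFRSF10B (8.71 and 9.91) and BAX (7.52 and 8.66). In this list 1 gene was over 2-fold lower in Ca9-22. The counts over 2-fold higher were 0, 0 and 3 in SAS-L1, HSC2 and HSC3, beside 0.367%, 0.406% and 1.37% of all genes. In Ca9-22 that share was 0.938%.

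Promoter sequence of the stress genes is shown as a description. ATF4 with its partners is known to bind a composite element, searched here as TGATGNAA on both strands in the window from 250 bases before to 50 after the start site (RefSeq, GRCh38.p14). The element was present in 5 of 26 stress list promoters and in 3.62% of all 35116 promoters. The list was compiled from genes known for this response, so these shares say nothing about Ca9-22. The windows of 30 bases around each match are shown, with the match in capitals, reading along the gene's strand.
CHAC1 (chr15:40953251-40953280, plus strand): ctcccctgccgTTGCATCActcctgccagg
ASNS (chr7:97872458-97872487, minus strand): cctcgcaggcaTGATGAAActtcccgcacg
ATF3 (chr1:212565205-212565234, plus strand): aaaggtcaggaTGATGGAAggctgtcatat
HERPUD1 (chr16:56931955-56931984, plus strand): gacgcggcgggTTGCATCAgcccgtgccca
SLC3A2 (chr11:62881719-62881748, plus strand): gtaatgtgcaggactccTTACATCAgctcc
Of these 5 genes, CHAC1, ASNS and ATF3 were over 2-fold higher with the mimic in Ca9-22. HERPUD1 was higher by 0.46 in Ca9-22 and lower in each other line, and SLC3A2 was lower in all 4. ATF3 measured 5.16 and 6.23 in Ca9-22, with differences of -0.23 to 0.11 elsewhere. SESN2, TRIB3 and DDIT3 had no match in this window.

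MMP10, MMP12 and MMP13, which were high in Ca9-22 with miR-NT, were lower with the mimic there. The high miR-NT signal and the fall both use the same single array. Of the 20 measured proteases, 3 were over 2-fold lower in Ca9-22 and 0 over 2-fold higher, beside 2.02% and 0.938% of all genes. MMP10 measured 8.12 with miR-NT and 6.12 with miR-375 (-2.00), beside -0.13, 0.18 and -0.06 in SAS-L1, HSC2 and HSC3. MMP13 measured 8.60 and 7.03 (-1.57), beside 0.12 to 0.26, and its 5 probe sets gave -2.46 to -0.06. MMP12 measured 6.05 and 4.98 (-1.07). In the other lines the signals of all 3 were at most 6.15 on every array. In the interferon list, 6 of 37 genes were over 2-fold higher in Ca9-22 and 1 lower, against 1, 0 and 4 higher in SAS-L1, HSC2 and HSC3. Over all genes, 0.938% were higher and 2.02% lower in Ca9-22. The shares higher in SAS-L1, HSC2 and HSC3 were 0.367%, 0.406% and 1.37%. IFIT2, an inhibitor of translation of viral RNA, measured 5.13 and 7.04 (1.91), beside 1.33 in SAS-L1, -0.01 in HSC2 and 1.35 in HSC3. OASL, a sensor partner, measured 5.72 and 7.48 (1.76), beside 0.32 to 0.48.

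**Figure D5:**
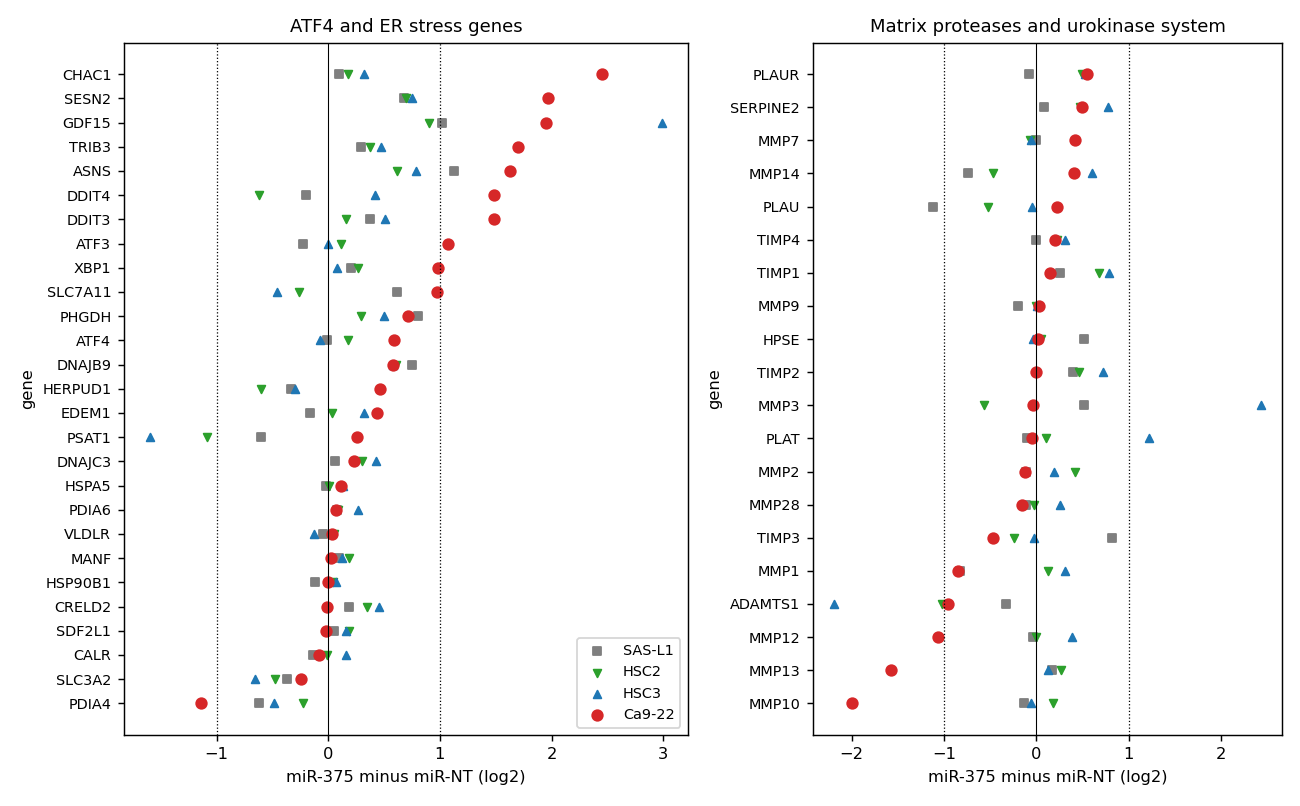
Difference between the mimic and miR-NT (log2, horizontal axis) of every measured gene of the ATF4 and ER stress list (left, 27 genes) and of the matrix protease list (right, 20 genes), 1 point per line; dotted lines mark 2-fold. In Ca9-22, 8 of 27 stress genes lie beyond 2-fold on the right, and MMP10 (-2.00), MMP13 (-1.57) and MMP12 (-1.07) lie beyond it on the left.

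Whether the response of Ca9-22 differed from that of the other lines was tested in limma on the 4 differences between treatments, 1 per line, under the assumption that the lone value of Ca9-22 varies like the others. No gene of 18239 passed in either direction (0%), at a smallest adjusted p of 0.343, while 1174 genes had an unadjusted p under 0.05. Nothing of the response is therefore shown to be particular to Ca9-22. As a description, the genes whose Ca9-22 value lay furthest above the other 3 lines were CHAC1, CTH, PTGS2, STC2, ENPP5, OASL, TMT1A and MCUB. CHAC1 differed from the mean of the other lines with an unadjusted p of 2.11e-05 and an adjusted p of 0.343. Those furthest below were MMP10, MMP13, ADGRF1, ZHX2, KRT8, NXN, HSPA1A and SEMA3C. Some of these values depend on the probe set read. In Ca9-22 the probe sets gave 0.05 to 1.41 for TMT1A, 0.03 to 1.98 for MCUB and -1.47 to 0.17 for NXN. The heat shock gene HSPA1A measured 11.28 and 10.40 in Ca9-22 (-0.88), while the other lines were higher with the mimic by 0.34 to 0.63.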

How the data were processed

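RNA of 8 samples was measured on 8 arrays. The RNA was labeled with a 3′ IVT kit, PLUS in the methods and Express in the labels. The authors then made the deposited log2 values by RMA, per the submitters' processing notes, a method that brings all arrays to a common distribution. Detection calls and scanner files were not used here, so a low signal is not shown to be absence, and folds against it are ratios of signals. Of 49386 probe sets, 45259 had 1 symbol, brought to current names through RefSeq, and each of 18239 genes took its brightest probe set over all arrays. Tests used limma 3.58.1 in R 4.3.3 with Benjamini-Hochberg adjustment at 0.05, and were tested on simulated data. The simulation gave every gene the same correlation within a line, so it cannot show how the tests behave where genes differ in it. The identity fit held treatment and a random line block (consensus correlation 0.634). Nothing states separate cultures, so p-values measure the spread between these arrays. The number of arrays limits the precision.

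Named genes were the 15 largest called differences each way, the 15 largest falls and rises in Ca9-22 above the median signal, up to 5 members of each of 36 lists and, as no response difference passed, the 8 largest gaps each way. The genes of the chromosome runs, BRD3, COL6A1, DDIT3, HSPA5 and the promoter matches ATF3, HERPUD1 and SLC3A2 were named after their values were seen. The members and lists were chosen with earlier results of these data known. Alternatives changed the normalization, probe sets, dim genes, variance trend, line block, arrays and lines used, and the fold limit.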

Additional observations from a re-analysis of the deposited data

Results flagged for a closer look

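In 2 of the genes described, the Ca9-22 value moved over 2-fold with the mimic while every other line moved the opposite way, and the difference was not called by the test across all genes. MMP13 differed by -1.57 in Ca9-22, beside 0.17 in SAS-L1, 0.26 in HSC2 and 0.12 in HSC3 (limma on the differences, adjusted p = 0.343). ADGRF1, an adhesion G protein-coupled receptor, differed by -1.41 in Ca9-22, beside 0.28, 0.09 and 0.49, with limma's adjusted p = 0.371, and its 3 probe sets gave -1.41 to 0.02. Among all genes, 2 of the 369 that were over 2-fold lower in Ca9-22 and 2 of the 171 over 2-fold higher had the opposite direction in all 3 other lines.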

How the results depend on the processing

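The count of genes that set Ca9-22 apart, 34 higher and 37 lower, depended on how the arrays of a line were treated. It was 337 higher and 252 lower with arrays taken as independent, 2631 and 2071 with lines as fixed terms, and 0 and 0 in limma with line means or with the miR-NT or the miR-375 arrays alone (1254, 1278 and 1272 genes at an unadjusted p under 0.05). With 7397 dim genes left out it was 4 and 16. Leaving out another line gave 4 to 58 higher and 17 to 50 lower. Of the 30 named genes, 23, 23 and 12 were still called without SAS-L1, HSC2 and HSC3, 26 with the mean of the probe sets, 15 of the 23 tested with dim genes left out, and 0 with line means or the arrays of a single treatment. None changed direction under these alternatives.

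The mimic response of Ca9-22 gave 847 genes higher and 947 lower at 1.5-fold and 30 and 105 at 3-fold, and averaging probe sets gave 100 higher. In the other 3 lines, 392 genes rose once array medians were subtracted, and leaving out a line gave 0 to 288 rises and 0 to 422 falls. No gene's response differed between Ca9-22 and the other lines under any alternative at limma's adjusted p, with 1174 at an unadjusted p under 0.05 in the main analysis.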
